A study of Mus musculus with 18 samples.

Results

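The Polycomb repressive complex genes described here are 9 of the 16383 genes in a deposited table of RNA-seq levels: the PRC1 genes Bmi1, Ring1, Rnf2, Cbx2 and Cbx8, and the PRC2 genes Ezh2, Ezh1, Suz12 and Eed. They were taken by gene symbol, and all 9 symbols were found. Bmi1 was chosen by its measured levels, which did not overlap between Gstt1 knockdown and control libraries, so its levels in that comparison are a description and carry no test. The other 8 were included as subunits of the same complexes.

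The libraries came from 6 mouse lines of pancreatic ductal adenocarcinoma, grown from metastases that arose spontaneously in genetically engineered mice. The lung was the site of origin of lines 42-3 and 6-2, and the liver that of lines 42-2, G45-2, 6-3 and 13-2. In the presence of polybrene, cells received lentivirus carrying Gstt1 shRNA 1, Gstt1 shRNA 2 or an NT control hairpin, were selected with puromycin for 48 h and were harvested for RNA after a single split. The 18 libraries comprised 6 with shRNA 1, 4 with shRNA 2 and 8 NT controls. They formed 8 culture sets that each joined an NT control to the knockdowns labelled with the same line. The genotype labels name p48 (p48-Cre in the first 42-3 set) and a floxed p53 allele over a wild-type one in all lines, and SIRT6F/F in all lines but 13-2. By their labels, knockdown and control libraries of a set share these alleles, whereas the identity transcripts described below differ between the sides of some sets. The p48 (Ptf1a) promoter drives Cre in pancreatic cells. Lines 42-3 and 42-2 each gave 2 sets, called first and second here after their library code. Both hairpins were used in the G45-2 and 6-3 sets. The labels do not say whether the libraries of 1 line came from separate cultures, so the spread within a line may be technical. The p-values below measure the spread of knockdown differences among these culture sets, or of control levels among these lines.

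Polycomb proteins keep genes silent through histone marks. PRC2 methylates lysine 27 of histone H3 with Ezh2 or Ezh1 as its catalytic subunit, and it needs Suz12 and Eed, the subunit that binds the methylated tail, to be active. PRC1 attaches ubiquitin to histone H2A through Rnf2 or Ring1, each paired with a Pcgf protein of which Bmi1 (Pcgf4) is the best known, and Cbx proteins such as Cbx2 and Cbx8 read the mark left by PRC2. In the pancreas the complexes hold down the Cdkn2a locus, which encodes inhibitors of the cell cycle.

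The windows around the transcription start of the 3 genes that the results turn on are printed to show what sequence lies at the start of the gene that did not overlap between groups (Bmi1) and of the pair of alternative PRC2 enzymes. Each runs from 250 bases before to 50 bases from the start on, is read 5′ to 3′ on the gene's own strand, and comes from RefSeq on GRCm38.p6. Windows were found for 8 of the 9 genes, all but Cbx2. Capitals mark matches, on either strand, to 6 motifs. The E-box was searched as CACGTG, and the E2F motif as TTTGGCGC or as TTTCGCGC. The cell cycle homology region was searched as TTTGAA, the CAAT-type box bound by NF-Y as CCAAT, and the GC box of Sp1 as GGGCGG. The Bmi1 window is chr2:18676768-18677067 on the plus strand, the Ezh2 window chr6:47594981-47595280 on the minus strand and the Ezh1 window chr11:101226414-101226713 on the minus strand.
Bmi1: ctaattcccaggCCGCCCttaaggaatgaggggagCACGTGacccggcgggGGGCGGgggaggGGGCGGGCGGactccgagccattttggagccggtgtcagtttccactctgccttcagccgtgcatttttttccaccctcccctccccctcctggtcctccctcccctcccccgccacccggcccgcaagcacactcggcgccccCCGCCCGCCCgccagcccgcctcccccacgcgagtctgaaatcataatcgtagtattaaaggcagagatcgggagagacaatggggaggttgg
Ezh2: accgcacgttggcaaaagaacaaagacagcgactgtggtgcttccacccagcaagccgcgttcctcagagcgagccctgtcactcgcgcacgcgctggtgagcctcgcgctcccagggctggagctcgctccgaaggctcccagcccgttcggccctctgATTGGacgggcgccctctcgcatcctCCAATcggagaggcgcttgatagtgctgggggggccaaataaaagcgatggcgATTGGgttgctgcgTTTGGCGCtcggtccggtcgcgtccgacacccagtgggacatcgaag
Ezh1: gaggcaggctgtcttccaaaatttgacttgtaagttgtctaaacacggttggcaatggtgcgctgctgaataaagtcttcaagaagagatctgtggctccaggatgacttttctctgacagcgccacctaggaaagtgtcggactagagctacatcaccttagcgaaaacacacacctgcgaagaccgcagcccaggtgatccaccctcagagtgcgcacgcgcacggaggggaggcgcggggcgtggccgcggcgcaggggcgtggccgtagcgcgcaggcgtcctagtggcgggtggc
The Bmi1 window held 1 E-box, which starts 215 bases before the transcription start, and 6 GC boxes, some of which overlap each other. The Ezh2 window held 1 E2F motif, which begins within the first bases of the transcript, and 3 NF-Y boxes. None of the 6 motifs was found in the Ezh1 window. CACGTG is in 7.15% of the 32851 windows of this length in the RefSeq table, TTTGGCGC in 0.514%, TTTCGCGC in 0.323%, TTTGAA in 17.9%, CCAAT in 37.4% and GGGCGG in 35.7%. Among the other members with a window, GC boxes were also in Ring1, Rnf2, Cbx8 and Suz12, NF-Y boxes in Cbx8, Suz12 and Eed, an E-box in Cbx8, and the cell cycle homology region in Suz12 and Eed. These matches describe the letters in the windows and do not show binding by any factor.

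The libraries held 8411436 to 25552912 reads, as worked out from the smallest steps between values, and 3 reads correspond to 0.117 to 0.357 CPM (the reads of a gene scaled to a common library total). The 9 genes were well above this floor: the shallowest value was 72 reads, for Cbx8 in the second 42-3 knockdown library, and Bmi1 had 584 to 3389 reads. Gstt1 was at 0.0687 to 23.9 CPM in knockdown libraries and 0.616 to 52.5 CPM in NT controls, and was below its own control in all 10 knockdown libraries; line 42-2 had little Gstt1 before knockdown, at 2.67 and 0.616 CPM in its controls. In 5 of the 8 sets the knockdown library and its own control differed at least 10-fold in 2 or more of 7 identity transcripts that reached 10 CPM in 1 of them. These are Xist, Cdkn2a, Cdkn2b and the Y-chromosomal Uty, Ddx3y, Kdm5d and Eif2s3y. These were both 42-3 sets, 6-2, 13-2 and the first 42-2 set, and at a limit of 1 CPM the second 42-2 set joined them. In the first 42-3 set Xist was at 197 CPM in the knockdown and 0.0736 CPM in the control. Ddx3y there was at 0 CPM in the knockdown and 222 CPM in the control. Whether both sides of these sets came from the same line, as labelled, was not tested. In 13-2 and the first 42-2 set the transcripts that met the 10 CPM limit were Cdkn2a and Cdkn2b alone, and whether these mark the line or moved with the knockdown was not tested. The G45-2 set differed in 1 transcript, Kdm5d, and was kept. Knockdown differences of the members are also given from the 3 retained sets (G45-2, 6-3 and second 42-2) and from G45-2 and 6-3 alone, called the reduced fits. The loss of Gstt1 was smaller in these fits. Its fitted difference on the log2(CPM + 1) scale was -1.37 and -2.13 there, against -3.27 over all sets.

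Epithelial markers (Epcam, Krt8, Krt18, Krt19, Krt7, Cdh1, Muc1 and Sox9) summed to 377 to 7746 CPM in knockdown libraries and 540 to 15185 CPM in NT controls, and were lowest on both sides in the second 42-2 set, whose fibroblast markers were highest. Of the 8 epithelial markers 7 were fitted lower and 1 higher under knockdown, with a median of -1.35, against -0.03 for all genes tested. In limma 0 of them passed an adjusted p of 0.05 (0.0387% of all genes), and 4 had an unadjusted p under 0.05 (17.1% of all genes). Fibroblast markers summed to 4.08 to 6452 CPM in knockdown libraries and 5.79 to 2917 CPM in NT controls. The highest sum on each side was mostly Col3a1, at 6083 CPM in the knockdown and 2681 CPM in the control. Dcn was at most 1.31 CPM and Col1a2 at most 8.75 CPM, and Lum was at 0 in 15 of 18 libraries. Of the 5 fibroblast markers tested 2 were fitted higher and 3 lower under knockdown. Macrophage markers summed to 16.6 to 226 CPM in knockdown libraries and 87.6 to 875 CPM in NT controls, nearly all of it Cd14, while the pan-leukocyte gene Ptprc was at most 1.67 CPM. Endothelial markers summed to at most 12.2 CPM. The part of these markers in the differences below was not tested, and in bulk RNA fewer cells of a type and less RNA per cell cannot be told apart.

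On a scale of CPM per kilobase of exon, which allows genes to be compared, the PRC2 genes Ezh2, Eed and Suz12 and the PRC1 genes Rnf2 and Bmi1 had the highest means. In knockdown libraries the mean levels were 48.1 ± 18.3 for Ezh2, 42.3 ± 12.7 for Eed, 35.8 ± 11.9 for Suz12, 31.1 ± 4.86 for Rnf2 and 28.9 ± 5.06 for Bmi1 (CPM per kilobase; SD, n = 10). Below these came Ring1 at 11.9 ± 3.58, Cbx2 at 9.35 ± 3.32, Ezh1 at 7.56 ± 2.65 and Cbx8 at 3.51 ± 1.01 CPM per kilobase. In NT controls Eed, Suz12, Ezh2 and Rnf2 lay within 26.7 to 32.2 CPM per kilobase, and neighbours among these 4 did not differ beyond their SD. Bmi1 was next in NT controls at 14.8 ± 2.53, then Ring1 at 10.7 ± 2.89, Ezh1 at 10.6 ± 3.14, Cbx2 at 7.73 ± 2.58 and Cbx8 at 3.32 ± 0.875 CPM per kilobase (SD, n = 8). Rnf2 was the more abundant of the alternative PRC1 enzymes and Ezh2 the more abundant of the PRC2 enzymes in the means of both groups.

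Bmi1, which stimulates the ubiquitin ligase activity of Rnf2 and Ring1, was higher in every knockdown library than in every NT control. With shRNA 1 it was at 132.6 CPM in the first 42-3 set, 119.8 in 6-2, 113.5 in the first 42-2 set, 113.9 in G45-2, 117.2 in 6-3 and 93.0 in 13-2. With shRNA 2 it was at 108.9 CPM in G45-2, 84.6 in the second 42-3 set, 69.8 in 6-3 and 114.2 in the second 42-2 set. In the NT controls it was at 69.4 CPM in the first 42-3 set, 39.3 in the second 42-3 set, 56.3 in 6-2, 61.2 in the first 42-2 set, 50.2 in the second 42-2 set, 48.1 in G45-2, 52.8 in 6-3 and 61.7 in 13-2. The groups did not overlap, but they nearly touched: the lowest knockdown value, 69.8 CPM in the 6-3 library with shRNA 2, lay just above the highest control value, 69.4 CPM in the first 42-3 set.

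**Figure D1:**
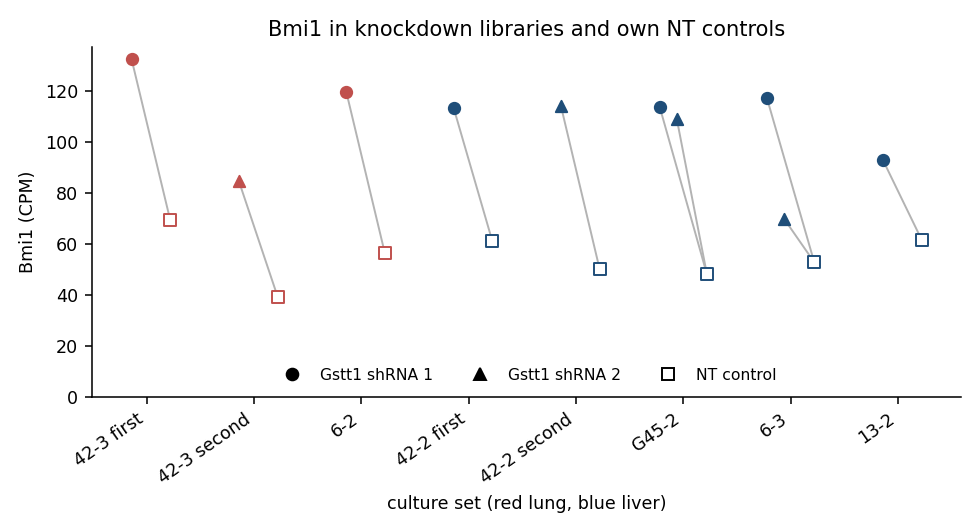
Bmi1 level (CPM, vertical axis) in each culture set (horizontal axis), with filled circles for Gstt1 shRNA 1, filled triangles for shRNA 2 and open squares for the NT control of the same set, joined by lines; red marks lung lines and blue liver lines. All 10 knockdown libraries lie above their own control, and the smallest step is that of shRNA 2 in 6-3, at 69.8 CPM against 52.8 CPM in its control.

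Bmi1 averaged 106.8 ± 18.7 CPM in knockdown libraries (SD, n = 10) and 54.9 ± 9.35 CPM in NT controls (SD, n = 8). Against the own control, the 10 knockdown libraries had 1.32 to 2.37 times as much Bmi1. Averaged within each set, the difference on the log2(CPM + 1) scale was 0.96 ± 0.21 (SD, n = 8 sets), and it was above 0 in 8 of 8 sets, from 0.58 in 13-2 to 1.19 in G45-2. The fitted difference was 0.95 (SE 0.15), 1.08 (SE 0.22) in the 3 retained sets and 0.98 (SE 0.26) in G45-2 and 6-3 alone. These values chose the gene and support nothing further; over all 12931 genes tested, 0.101% had every knockdown library above every NT control and 0.0851% had every knockdown library below.

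In the 2 sets that carried both hairpins, the Bmi1 levels with the hairpins lay close together in one set and apart in the other. In G45-2 it was at 108.9 CPM with shRNA 2 and 113.9 CPM with shRNA 1, whereas in 6-3 it was at 69.8 CPM with shRNA 2 and 117.2 CPM with shRNA 1. Gstt1 in the same libraries was at 5.15 CPM with shRNA 2 and 23.9 CPM with shRNA 1 in G45-2, and at 0.25 CPM with shRNA 2 and 19.2 CPM with shRNA 1 in 6-3. In the controls Gstt1 was at 43.8 CPM in G45-2 and 25.4 CPM in 6-3. With shRNA 1 it thus stayed at 54.5% of the control in G45-2 and 75.4% in 6-3. The 6-3 library with shRNA 2 had the least Bmi1 of the 10, and its Gstt1 was near the floor. The first 42-3 knockdown, with Gstt1 at 0.352 CPM, had the most Bmi1, at 132.6 CPM. In line 42-2, whose controls held little Gstt1, Bmi1 was at 113.5 CPM with shRNA 1 in the first set, against 61.2 CPM in the control. In the second 42-2 set it was at 114.2 CPM with shRNA 2, against 50.2 CPM in the control. Whether Bmi1 followed the level of Gstt1 was not tested.

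The gene immediately upstream of Bmi1 on the same strand is Commd3, which takes part in protein sorting in endosomes. Commd3 ranged over 53.9 to 173.2 CPM in knockdown libraries and 54.3 to 86.0 CPM in NT controls, so the groups overlapped. Its fitted difference was 0.50 (SE 0.23, limma adjusted p = 0.290), 0.01 in the 3 retained sets and -0.08 in G45-2 and 6-3 alone. Commd3 was above its own control in 7 of 10 knockdown libraries, and below it in 6-2 and with both hairpins in 6-3. Pcgf2, which encodes a close relative of Bmi1 and takes its place in some PRC1 complexes, served as a denominator for Bmi1, as a description only, since the numerator holds the values that chose Bmi1. The ratio of Bmi1 to Pcgf2 in CPM was 4.64 to 9.71 in knockdown libraries and 2.52 to 6.59 in NT controls. It was above the own control in 9 of 10 knockdown libraries, all but that of the first 42-2 set, at 6.36 with shRNA 1 against 6.59 in the control.

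The genes whose levels ran most like Bmi1 over the 18 libraries, among 10530 genes with a mean of at least 5 CPM, were Trpm7 (Pearson r = 0.86), Ubr1 (0.84), Arhgap21 (0.83), Rprd1b (0.83) and Hps5 (0.82). Trpm7 encodes an ion channel fused to a kinase and Ubr1 a ubiquitin ligase of the N-end rule. Trpm7 was at 114 to 225 CPM in knockdown libraries and 53.3 to 126 CPM in NT controls, and Arhgap21 at 121 to 187 CPM in knockdown libraries and 52.1 to 103 CPM in NT controls. These points share the contrast between knockdown and control, the lines and the scaling per library, so the correlations are a description of likeness in these libraries. None of the other 8 Polycomb members was among them, the nearest being Rnf2 (r = 0.52), Ezh2 (0.46) and Eed (0.35).

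For the other 8 members the fit across all genes asked whether knockdown and control differed, with the culture set as a block (limma on log2(CPM + 1), adjusted over 12931 genes). No member passed an adjusted p of 0.05 in limma, 2 of 8 (Ezh2 and Ezh1) had an unadjusted p under 0.05, and edgeR on the recovered reads also called 0 of 8, with 2 at an unadjusted p under 0.05. Of all genes tested 0.0387% were called by limma, 0.0% by edgeR, and 17.1% had an unadjusted p under 0.05 in limma. Fitted differences were above 0 for 7 members and below 0 for Ezh1, and the median of the 8 was 0.21, against -0.03 for all genes tested. A p past the threshold for none of them does not show that their levels were alike.

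**Figure D2:**
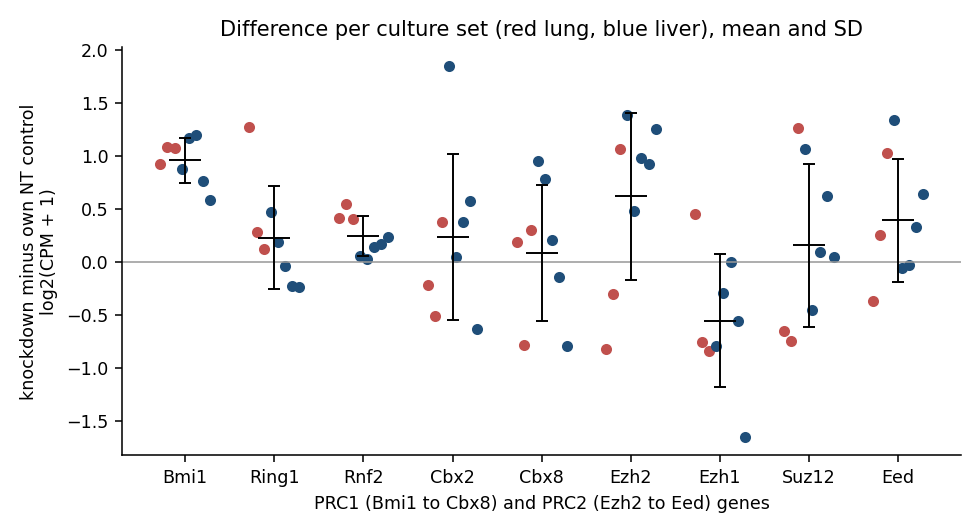
Difference between knockdown and own NT control on the log2(CPM + 1) scale (vertical axis) for the 9 genes (horizontal axis), each point 1 of 8 culture sets (red lung, blue liver), with the mean as a bar and the SD as whiskers. Bmi1 is above 0 in all sets with the SD of 0.21, Rnf2 is above 0 in all sets but close to it, and the other genes have sets on both sides of 0.

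Rnf2 (Ring1b), the main ubiquitin ligase of PRC1, was slightly higher in every set. It was at 131.3 CPM in the first 42-3 knockdown, 107.6 in the second 42-3 knockdown and 90.3 in the 6-2 knockdown, against 98.2, 73.4 and 68.2 CPM in the controls of those lung sets. In the liver knockdowns it was at 82.1 to 123.1 CPM, against 80.2 to 121.0 CPM in the liver controls. The groups overlapped, and the wider gaps were in the 3 lung sets. The fitted difference was 0.24 (SE 0.13, limma adjusted p = 0.365), with 8 of 8 sets above 0, and 0.12 in the 3 retained sets and 0.16 in G45-2 and 6-3 alone. Among all genes 1.34% were above the own control in every set and 2.43% below it.

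Ring1, the alternative ligase subunit, was at 15.6 to 39.0 CPM in knockdown libraries and 12.4 to 28.7 CPM in NT controls. Its widest gap was in the first 42-3 set, at 31.3 CPM in the knockdown and 12.4 CPM in the control, while the G45-2 libraries were almost level at 19.8 CPM with shRNA 1, 18.8 CPM with shRNA 2 and 19.8 CPM in the control. Its fitted difference of 0.17 (SE 0.21, limma adjusted p = 0.705) was 0.06 without the first 42-3 set, and turned to -0.02 in the 3 retained sets and to -0.13 in G45-2 and 6-3 alone. Because Ring1 and Rnf2 can each fill the same place in PRC1, their ratio was also taken: Rnf2 to Ring1 in CPM was 2.20 to 6.02 in knockdown libraries and 2.96 to 7.93 in NT controls, above the own control in 7 of 10.

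The chromodomain genes Cbx2 and Cbx8, neighbours on chromosome 11 that encode alternative readers of the PRC2 mark, had sets on both sides of 0. Cbx2 was at 16.3 to 53.4 CPM in knockdown libraries and 12.9 to 39.2 CPM in NT controls, and 5 of 8 sets were above their control. The first 42-2 set stood out, at 49.0 CPM in the knockdown and 12.9 CPM in the control. Cbx8 was at 8.34 to 18.9 CPM in knockdown libraries and 6.82 to 15.4 CPM in NT controls, also with 5 of 8 sets above their control. The fitted differences were 0.24 (SE 0.26, limma adjusted p = 0.667) for Cbx2 and 0.06 (SE 0.26, adjusted p = 0.926) for Cbx8. Without the first 42-2 set the Cbx2 difference was 0.05. In the 3 retained sets they were 0.35 and 0.24, and in G45-2 and 6-3 alone 0.48 and 0.03.

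Of the PRC2 genes, the paired enzymes Ezh2 and Ezh1 had the largest fitted differences of the 8, with opposite signs. Ezh2, the form that predominates in dividing cells, was with shRNA 1 at 59.9 CPM in the first 42-3 set, 203.2 in 6-2, 199.2 in the first 42-2 set, 153.9 in G45-2, 122.6 in 6-3 and 94.1 in 13-2. With shRNA 2 it was at 131.7 CPM in G45-2, 67.5 in the second 42-3 set, 185.3 in 6-3 and 130.04 in the second 42-2 set. In the NT controls it was at 106.7 CPM in the first 42-3 set, 83.7 in the second 42-3 set, 96.7 in 6-2, 75.8 in the first 42-2 set, 92.7 in the second 42-2 set, 71.7 in G45-2, 79.0 in 6-3 and 38.9 in 13-2. All 5 liver sets and the lung line 6-2 were higher in the knockdown, and both sets of the lung line 42-3 were lower, so the groups overlapped.

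Averaged by group, Ezh2 was at 134.8 ± 51.3 CPM in knockdown libraries (SD, n = 10) and 80.7 ± 20.5 CPM in NT controls (SD, n = 8). Its fitted difference was 0.63 (SE 0.25, limma adjusted p = 0.225), higher in 6 of 8 sets. In the 3 retained sets it was 0.81 (SE 0.22, adjusted p = 0.348) and in G45-2 and 6-3 alone 0.95 (SE 0.25, adjusted p = 0.270). In lines 6-3 and 13-2 the control has another library code than its knockdowns. Without these lines the Ezh2 difference was 0.47 (SE 0.30, limma adjusted p = 0.589).

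Ezh1, the form found in resting cells as well, was at 73.0 CPM in the first 42-3 knockdown, 68.0 with shRNA 1 and 51.7 with shRNA 2 in G45-2, 60.3 with shRNA 1 and 27.7 with shRNA 2 in 6-3, 40.4 in the second 42-3 knockdown, 35.3 in 6-2, 34.1 in the first and 35.4 in the second 42-2 knockdown, and 33.8 in 13-2. In the NT controls it was at 53.0 CPM in the first and 68.6 in the second 42-3 set, 63.7 in 6-2, 59.8 in the first and 43.4 in the second 42-2 set, 59.3 in G45-2, 60.8 in 6-3 and 108.1 in 13-2. Of the 10 knockdown libraries 6 lay below the lowest control, and the first 42-3 knockdown and the G45-2 library with shRNA 1 lay above their own controls. The fitted difference was -0.57 (SE 0.23, limma adjusted p = 0.245). It came to -0.19 (adjusted p = 0.795) in the 3 retained sets and -0.28 (adjusted p = 0.720) in G45-2 and 6-3 alone, so the value was over 1.5 times smaller without the other sets. The 13-2 control had the highest Ezh1 and the lowest Ezh2 of the controls.

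**Figure D3:**
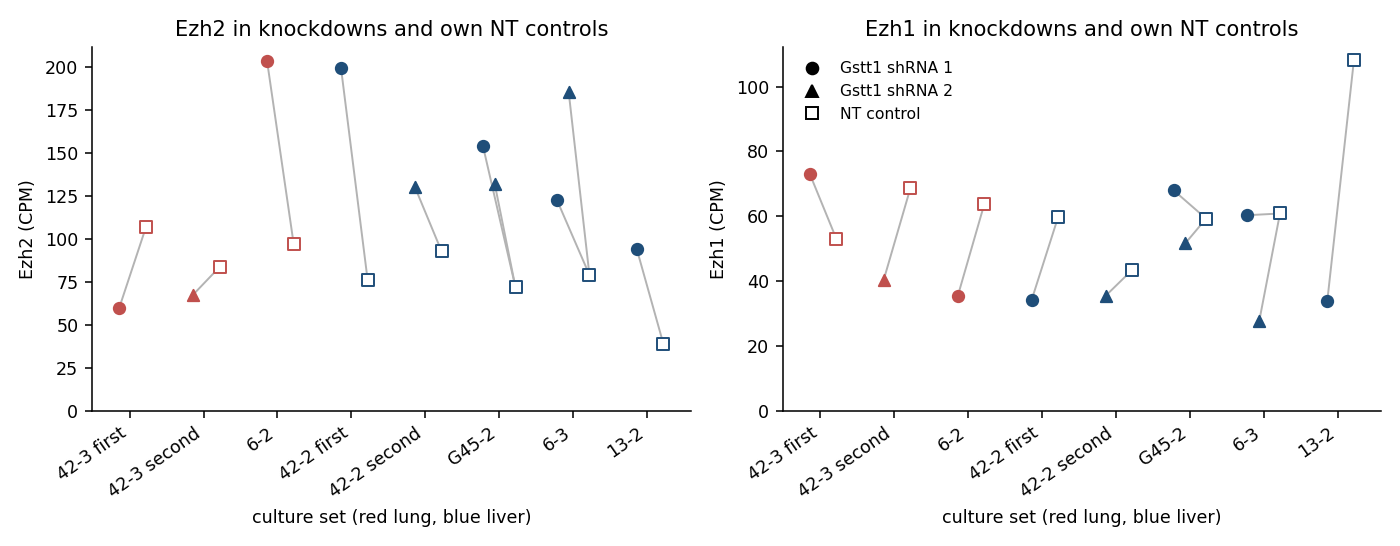
Ezh2 (left) and Ezh1 (right) levels in CPM (vertical axes) by culture set (horizontal axes), with filled circles for Gstt1 shRNA 1, filled triangles for shRNA 2 and open squares for the NT control of the same set; red marks lung lines and blue liver lines. Ezh2 lies above its control in every liver set and in 6-2 and below it in both 42-3 sets, and Ezh1 lies below its control in 8 of 10 libraries.

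The ratio of Ezh2 to Ezh1 in CPM sets the alternative enzymes against each other within a library. It was 0.82 to 6.68 (median 2.67) in knockdown libraries and 0.36 to 2.13 (median 1.28) in NT controls, and was above the own control in 9 of 10 knockdown libraries. The exception was the first 42-3 set, at 0.82 in the knockdown and 2.02 in the control. In the second 42-3 set, where both genes were lower in the knockdown, the ratio was 1.67 in the knockdown and 1.22 in the control.

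Suz12, the PRC2 scaffold, was at 99.1 to 265.7 CPM in knockdown libraries and 87.6 to 207.3 CPM in NT controls, with wide overlap. It was over 2 times its control in 6-2, in the first 42-2 set and with shRNA 2 in 6-3, at 265.7, 184.6 and 210.1 CPM in those knockdowns against 110.4, 87.6 and 100.9 CPM in the controls. It was below its control in both 42-3 sets and in the second 42-2 set. Eed was at 62.5 to 143.5 CPM in knockdown libraries and 41.5 to 84.7 CPM in NT controls, and 5 of 8 sets were above their control. The fitted differences were 0.15 (SE 0.25, limma adjusted p = 0.793; 0.006 without the 6-3 set) for Suz12 and 0.36 (SE 0.20, adjusted p = 0.372) for Eed. In the 3 retained sets they were 0.10 and 0.08, and in G45-2 and 6-3 alone 0.35 and 0.15.

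Ezh2, Suz12 and Eed ran with genes of the dividing cell. All 18 genes of a proliferation list (among them Mki67, Top2a, Cdk1 and Mcm2) were fitted higher under knockdown, with a median of 0.85. In limma 0 passed the adjusted threshold (0.0387% of all genes), and 12 had an unadjusted p under 0.05 (17.1% of all genes). Mki67, the standard marker of cycling cells, was at 107 to 382 CPM in knockdown libraries and 29.7 to 119 CPM in NT controls. Its fitted difference was 1.60 (limma adjusted p = 0.0692), and 1.49 and 1.85 in the reduced fits. The mean difference of the list from the own control was negative in the first 42-3 set (-0.97) and close to 0 in the second 42-3 set (-0.04) and the second 42-2 set (0.26). It was 0.83 and 0.88 in G45-2 with shRNA 1 and shRNA 2, and 1.21 to 2.01 in the remaining pairs. Over the 10 pairs of knockdown and control, the difference of Ezh2 correlated with that of the list at r = 0.90, Suz12 at 0.78, Eed at 0.66 and Cbx2 at 0.52, whereas Bmi1 was at -0.43, Rnf2 at -0.46, Ezh1 at -0.59, Ring1 at -0.77 and Cbx8 at -0.04. The pairs share controls in G45-2 and 6-3 and lines in 42-3 and 42-2, and these correlations are a description.

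**Figure D4:**
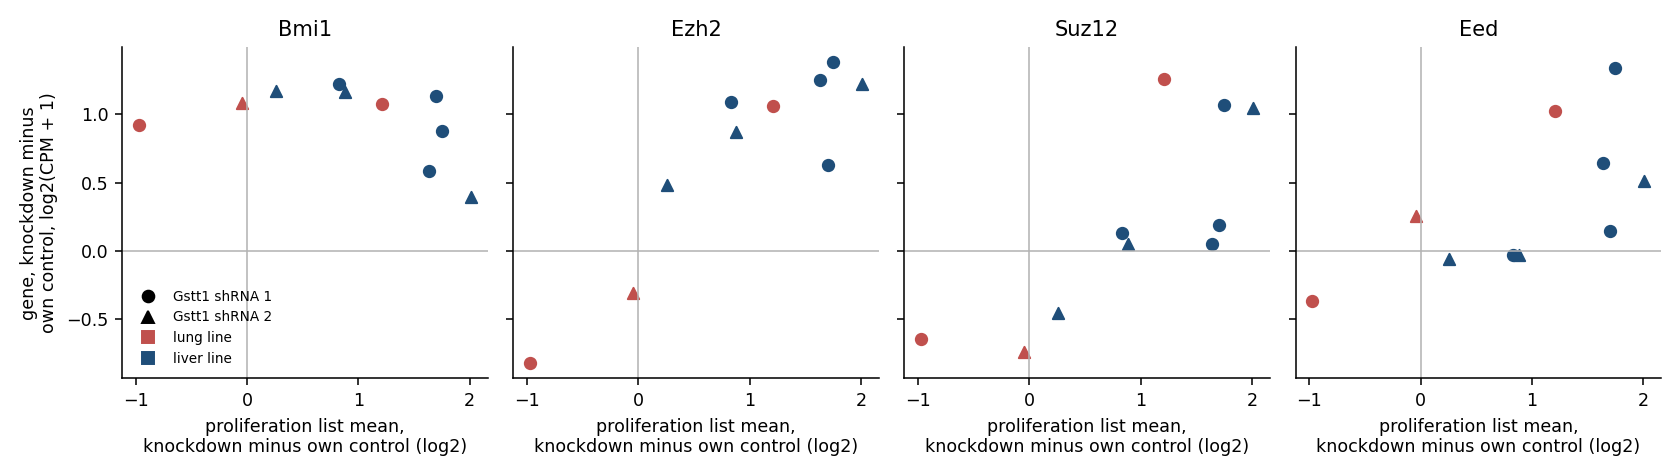
For each of the 10 pairs of a knockdown library and its own control, the mean difference of the proliferation list (horizontal axes) and the difference of Bmi1, Ezh2, Suz12 or Eed (vertical axes), both on the log2(CPM + 1) scale; circles are shRNA 1, triangles shRNA 2, red lung and blue liver. Ezh2 runs with the list (r = 0.90), and Bmi1, which was chosen for being higher under knockdown, lies above 0 in all pairs.

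Taken hairpin by hairpin, no member passed the threshold in limma or edgeR. Against NT controls with shRNA 1, 0 of 8 were called (0.0% of all genes), 1 (Ezh2) had an unadjusted p under 0.05 in limma (16.1% of all genes) and 1 in edgeR. With shRNA 2, 0 of 8 were called (0.0% of all genes), 1 (Ezh1) had an unadjusted p under 0.05 in limma (6.45% of all genes) and 0 in edgeR. Ezh2 had a fitted difference of 0.68 with shRNA 1 (SE 0.29, limma adjusted p = 0.277) and 0.58 with shRNA 2 (SE 0.34, adjusted p = 0.829). In the reduced fits it was 0.77 and 0.86 with shRNA 1, and 0.86 and 1.04 with shRNA 2. Ezh1 had -0.74 with shRNA 2 (SE 0.32, adjusted p = 0.764) and -0.40 with shRNA 1 (SE 0.27, adjusted p = 0.481); the shRNA 1 value was 0.15 and 0.09 in the reduced fits. Both hairpins were set against the same controls in G45-2 and 6-3.

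The difference between the hairpins called 0 of 9 members in limma and in edgeR (0.0% of all genes). In either, 0 had an unadjusted p under 0.05 (0.495% of all genes in limma). Bmi1 was chosen by setting knockdowns against controls, not hairpin against hairpin. That choice used the levels of these same libraries, so the Bmi1 values here are a description. For Bmi1 the difference shRNA 2 minus shRNA 1 was -0.13 (SE 0.23), and it was 0.07 without lines 6-3 and 13-2 and -0.34 and -0.40 in the reduced fits. Ezh1 had -0.33, and -0.68 and -0.74 in the reduced fits. All 9 fitted differences were below 0, from -0.33 for Ezh1 to -0.01 for Rnf2. The 95% intervals of the 8 members other than Bmi1 reached from -1.14 to 0.78. The median of the 9 was -0.14, and that of all genes tested was also below 0, at -0.04. Rnf2 changed sign under median-ratio rescaling (0.02) and quantile normalization (0.03).

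Lung and liver lines were compared for the effect of knockdown and for the level in the controls. In the lung minus liver difference of the knockdown effect, 0 of 9 members were called by limma (0.503% of all genes) and 0 by edgeR (0.101% of all genes), with 1 (Ezh2) at an unadjusted p under 0.05 in each (19.7% of all genes in limma). Bmi1 differed by 0.10 (SE 0.29): its set differences were 0.93, 1.09 and 1.08 in the lung sets and 0.58 to 1.19 in the liver sets. The levels behind these set differences chose Bmi1, so its values here are a description and the count is to be read for the other 8. For Ezh2 the lung minus liver difference was -1.02 (SE 0.40, 95% interval -1.90 to -0.14, limma adjusted p = 0.200; -0.62 without the first 42-3 set and -1.56 without 6-2), its set differences being -0.82, -0.31 and 1.06 in the lung sets and 0.48 to 1.38 in the liver sets. Both negative values came from line 42-3 and the positive lung value from 6-2. All 3 lung sets are among the 5 whose knockdown and control differed in identity transcripts. The part of that difference in the lung values of all members was not tested. Among the other members Ring1 had 0.55 (adjusted p = 0.449) and Cbx2 -0.56 (adjusted p = 0.550).

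In the NT controls alone, lung against liver on the means of 2 lung and 4 liver lines, 0 of 9 members were called by limma (0.0309% of all genes) or by edgeR (0.00773% of all genes), with 0 at an unadjusted p under 0.05 in either (13.1% of all genes in limma). Bmi1 was nearly level: the line means were 54.4 and 56.3 CPM in the lung lines 42-3 and 6-2, and 61.7, 55.7, 52.8 and 48.1 CPM in the liver lines 13-2, 42-2, 6-3 and G45-2. Its fitted difference was 0.00 (SE 0.22), of a sign that varied with the scaling. The control levels also entered the choice of Bmi1, so this value is a description and the count is to be read for the other 8. Ezh2 had the smallest p, at 95.2 and 96.7 CPM in the lung lines and 38.9 to 84.3 CPM in the liver lines (0.54, limma adjusted p = 0.520). Ring1 ran the other way, at 14.4 and 19.6 CPM in the lung lines and 19.8 to 28.7 CPM in the liver lines (-0.50, adjusted p = 0.535).

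The rest of the Polycomb machinery was read from lists, in which edgeR, having called 0 of all genes under knockdown, also called 0. Among all genes tested under knockdown, 0.0387% were called by limma and 17.1% had an unadjusted p under 0.05, against which the list counts are to be read. Of 22 other PRC1 genes 20 were tested, of which 13 were fitted higher and 7 lower under knockdown, with 0 past the adjusted threshold in limma, 3 at an unadjusted p under 0.05 and a median of 0.11. Yaf2, an adaptor of variant PRC1, was at 49.6 to 120 CPM in knockdown libraries and 84.3 to 162 CPM in NT controls (-0.54, limma adjusted p = 0.169; -0.29 and -0.25 in the reduced fits). Cbx7, another reader of the PRC2 mark, was at 7.98 to 29.2 CPM in knockdown libraries and 21.4 to 52.4 CPM in NT controls; its difference of -0.84 (adjusted p = 0.197) was -0.21 and -0.09 in the reduced fits. Auts2, a subunit of an activating form of PRC1, had -1.47 (adjusted p = 0.247; -1.05 and -1.95 in the reduced fits).

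Of 11 other PRC2 genes 9 were tested, with 6 fitted higher, 3 lower, 0 past the threshold in limma, 1 at an unadjusted p under 0.05 and a median of 0.13. Phf19, a Polycomb-like protein that brings PRC2 to methylated chromatin, had the smallest p. It was at 43.4 CPM in the 6-2 knockdown, 31.0 in the first and 38.2 in the second 42-2 knockdown, 27.4 with shRNA 1 and 29.5 with shRNA 2 in G45-2, 38.9 with shRNA 1 and 7.32 with shRNA 2 in 6-3, 17.8 in 13-2, and 8.53 and 16.6 in the first and second 42-3 knockdowns. Its NT controls were at 1.36 to 17.2 CPM. The first 42-3 knockdown was level with its control, at 8.53 CPM in the knockdown and 8.54 CPM in the control, and the other 7 sets were higher. The fitted difference was 1.68 (SE 0.39, limma adjusted p = 0.1002), 2.56 in the 3 retained sets (adjusted p = 0.299) and 2.86 in G45-2 and 6-3 alone (adjusted p = 0.207).

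Among 14 genes that oppose Polycomb or belong to its deubiquitinase, 9 were tested, with 6 fitted higher, 3 lower, 0 past the threshold in limma, 2 at an unadjusted p under 0.05 and a median of 0.13. Asxl1, the partner of the deubiquitinase Bap1, was at 104 to 160 CPM in knockdown libraries and 74.2 to 135 CPM in NT controls, higher in 7 of 8 sets (0.47, limma adjusted p = 0.138; 0.44 and 0.38 in the reduced fits). Kdm6a, the X-linked demethylase that removes the PRC2 mark, had 0.05, which turned to -0.31 and -0.37 in the reduced fits. Its Y-linked relative Uty is itself 1 of the identity transcripts: it was listed at 0 in 4 knockdown libraries, those of both 42-3 sets, 6-2 and the first 42-2 set, and its difference of -2.25 turned to 0.03 and 0.44 in the reduced fits.

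Textbook Polycomb targets were mostly low in these cells. Of 63 targets 60 were in the table and 28 were tested, with 17 fitted higher, 11 lower, 0 past the threshold in limma, 10 at an unadjusted p under 0.05 and a median of 0.58. Cdkn2a, a locus that the complexes hold down in the pancreas, was at 0 to 121 CPM in knockdown libraries and 60.6 to 170 CPM in NT controls. Its neighbour Cdkn2b was at 0 to 126 CPM in knockdown libraries and 81.8 to 238 CPM in NT controls. Their differences were -3.09 (limma adjusted p = 0.112) and -3.55 (adjusted p = 0.109). Both are identity transcripts, and the deepest values came from the sets that differ in these: Cdkn2a was at 0.461 CPM in the 6-2 knockdown, 0.0706 in 13-2 and 0 in the second 42-3 knockdown. In the 3 retained sets the differences were -0.58 for Cdkn2a and -0.88 for Cdkn2b, and in G45-2 and 6-3 alone -0.84 and -1.17. Sets were left out in part for a difference in these genes, so smaller values follow from that choice. Cdkn2a was below its own control in 9 of 10 knockdown libraries, all but the second 42-2 set, at 121 CPM in the knockdown and 91.0 CPM in the control.

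Of the Hox genes, the classical Polycomb targets, 36 were in the table and 15 of these stayed under 1 CPM in every library. The filter on low values left 10, of which 9 were fitted higher under knockdown and 0 passed the threshold. All 8 Hoxa genes tested were fitted higher. Among all genes tested 0.0387% were called by limma, and the median difference was -0.03. A low gene, Hox or other target, can pass the filter through the group in which it is high. The directions of such genes are in part set by the filter and are a description. Hoxa3 was at 0 to 11.2 CPM in knockdown libraries and 0 to 4.84 CPM in NT controls (1.07), and its difference was 0.16 in the 3 retained sets. Hoxb6 ran the other way, at 0 to 0.372 CPM in knockdown libraries and 0 to 29.4 CPM in NT controls (-1.57). The cell cycle inhibitor gene Cdkn1c was at 0.0746 to 2.29 CPM in knockdown libraries and 0 to 3.83 CPM in NT controls (-1.002), and the homeobox gene Lhx2 at 0 to 9.20 CPM in knockdown libraries and 0 to 3.46 CPM in NT controls (0.83). For all of these genes the knockdown and control ranges overlapped.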

How the data were processed

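RNA-seq libraries were made with a TruSeq kit from 1.3 µg of total RNA, per the labels' protocols. The authors deposited 1 table of CPM values (reads of a gene scaled to a common library total) for 18 libraries, which was used whole. Per the submitters' processing notes, reads were placed on mm9. Aligner, counting program and filters: not given in the sources used here. CPM values were whole multiples of the value of 1 read (100% within 0.01 reads), so reads and library totals were recovered. Column totals come to 99.0% to 99.6% of a full library. No pair of libraries of a group agreed within sampling noise (smallest chi-square per degree of freedom 97.8, over genes with at least 20 reads).

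Groups and lines came from the labels; 1 further allele in the genotype labels is not reported here. Lines 42-3 and 42-2, with 2 controls each, were divided into sets by library code. In lines 6-3 and 13-2 the code of the control differs from that of its knockdowns. Deviations of a knockdown library and its own control from their group means correlated across genes at -0.36 to 0.70 (median 0.02; 4 of 10 pairs above 0.1).

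Genes at 1 CPM or more in at least 4 libraries were tested on log2(CPM + 1), which understates the change of low genes, with limma 3.58.1 in R 4.3.3 (trended variance, two-sided tests, threshold 0.05 on p adjusted by Benjamini-Hochberg over all genes tested), with culture set as a block. The hairpin effects were averaged to give the knockdown difference. The site by knockdown term used 1 knockdown term, and controls of lung and liver lines were compared on line means. edgeR 4.0.16 (quasi-likelihood) was run on the recovered reads as an alternative. Levels per kilobase used exon unions of protein-coding basic transcripts in GENCODE vM21, a build other than mm9. The fit was tested on simulated data. Python 3.11.15, numpy 2.4.6, pandas 2.3.3, scipy 1.17.1 and matplotlib 3.10.9 made tables and plots.

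The members, the gene lists, the identity transcripts with their limits and the tests were chosen with earlier results of these data known. All 9 members are named in every comparison. Of the other Polycomb genes and of the targets, up to 6 with the smallest p under knockdown are named, with Cdkn2a, Cdkn2b, Kdm6a, Mki67, Commd3 and Gstt1. Settings varied were the pseudocount (0.5 or 2), the filter (none, or a minimum of 5 CPM), other scalings, no block, the cell line as block, 1 knockdown term, leaving out each set or line, and leaving out groups of sets.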

Additional observations from a re-analysis of the deposited data

Results flagged for a closer look

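Ezh1 in the NT control of line 13-2 stood apart from the other 7 controls, at 108 CPM against 68.6 CPM for the next highest, a gap of 0.610 of the whole range of the controls (limit 0.526 for 8 libraries). Chance flags about 1 in 20 groups, and 27 groups of libraries were examined, in which this was the 1 library that stood apart. With the 13-2 line left out the lung minus liver difference of Ezh1 in the controls was 0.12, against -0.11 with it.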

How the results depend on the processing

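The count of members past the threshold was 0 in each of the 6 comparisons and stayed 0 under all 120 alternatives run, the smallest adjusted p of a tested member being 0.0604 (Ezh2, lung minus liver knockdown effect). Without the culture set as a block, limma called 84 genes under knockdown and 0 of the 8 members. Of 998 fitted values of members and named genes under alternatives, 951 kept their direction and 47 reversed; the cause of the reversals was not tested. Mki67 passed the threshold in limma without the replicate block (adjusted p = 0.0242), with the cell line as block (0.0404), with 1 knockdown term (0.0348) and without the first 42-3 set (0.0341), and Gstt1 with the cell line as block (0.0452). Bmi1 under knockdown ran from 0.90 to 1.02 when each set was left out in turn, Ezh2 from 0.54 to 0.82, Ezh1 from -0.68 to -0.42, Ring1 from 0.055 to 0.26, Cbx2 from 0.052 to 0.37, Suz12 from 0.0058 to 0.30 and Eed from 0.25 to 0.45. No paired analysis by replicate number was possible because the labels give none that joins groups; the culture set served as the replicate block.

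Under knockdown, leaving out the 5 sets with differing identity transcripts turned Ring1 to -0.021, Uty to 0.031 and Kdm6a to -0.31, and leaving out the second 42-2 set as well gave -0.13, 0.44 and -0.37, with Commd3 at -0.077. Ezh1 with shRNA 1 was 0.15 and 0.0917 in these fits. Kdm6a was -0.040 without the replicate block. Without lines 6-3 and 13-2 the shRNA 2 minus shRNA 1 difference was 0.070 for Bmi1 and 0.11 for Rnf2, the lung minus liver knockdown effect -0.064 for Bmi1 and -0.052 for Ezh1, and the lung minus liver control difference 0.070 for Bmi1, 0.17 for Ezh1 and -0.11 for Eed. Rnf2 between the hairpins was 0.024 with median-ratio rescaling, 0.031 with quantile normalization, 0.054 with no replicate block, 0.030 with the cell line as block and 0.022 in edgeR. Bmi1 between lung and liver controls was 0.045, 0.031 and 0.041 with median-ratio rescaling, quantile normalization and edgeR.

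With each set or line left out in turn, values that changed sign ran as follows. Under knockdown, Cbx8 ran from -0.078 to 0.20 and Kdm6a from -0.13 to 0.17. Between the hairpins, Bmi1 ran from -0.20 to 0.14 and Rnf2 from -0.12 to 0.10. In the lung minus liver knockdown effect, Cbx8 ran from -0.49 to 0.063, Ezh1 from -0.18 to 0.47, Suz12 from -0.98 to 0.021 and Eed from -0.46 to 0.23. Between lung and liver controls, Bmi1 ran from -0.058 to 0.059, Ezh1 from -0.23 to 0.12, Suz12 from -0.087 to 0.66 and Eed from -0.11 to 0.25. The median of all genes under knockdown was -0.03 as scaled, -0.02 with median-ratio rescaling and 0.04 with quantile normalization. The fits on the retained sets hold no lung line, so comparisons of lung and liver could not be fitted there. With 2 lung lines and 4 shRNA 2 libraries, those comparisons carry wide intervals. Depth limits none of the 9 members, the shallowest value being 72 reads.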
